A study of Homo sapiens with 4 samples.

Results

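The regions described here are 8964 stretches of open chromatin in MCF10A cells that the deposited table lists in its common set, annotates as intergenic and places less than 100 kb from the annotated transcription start site of the nearest gene. They were chosen by 3 entries of the table, namely the name of the region, which puts it in the set shared by both groups, the annotation and the distance. They make up 15.4% of the 58127 regions of the table, 26.4% of the 33913 common regions and 73.1% of the 12262 common intergenic regions. Membership of the common set rests on the same libraries that are compared below. Counts of regions called higher or lower between the groups are therefore given as a description, and no further test was run on them.

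Accessibility was measured by ATAC-seq, in which a transposase inserts sequencing adapters into open DNA. MCF10A is an established human line of breast epithelium that does not form tumours. The labelled groups carry shG8d, a short hairpin against SNHG8d, one form of the long non-coding RNA SNHG8, or the control hairpin shNC. Each group has 2 libraries, lettered A and B, and nothing in the labels says whether they came from separate cultures. The p-values behind each call therefore reflect the spread of these libraries alone, and that spread may be technical.

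The group labels of the table contradict each other between its sets. In the common regions, 1 read was worth 0.842 and 0.807 normalized counts in the libraries labelled shG8d A and B, and 1.21 and 1.17 normalized counts in the libraries labelled shNC A and B. In the regions specific to either group the same 4 values stand under the opposite group labels. All 8964 regions lie in the common set, so their labels are uniform, but the direction of a difference cannot be assigned to the knockdown with certainty. The specific sets were also read with libraries named as in the common set. There, 0 of 732 shG8d-specific intergenic regions under 100 kb were called higher in shG8d and 509 (69.5%) lower. Of the 6507 shNC-specific ones, 678 (10.4%) were called higher and 69 (1.06%) lower. Over all regions these shares were 11.1% and 12.4%. Most of these calls go with the specific sets' own labels and against those of the common set. Membership of the specific sets rests on the same libraries, so the direction of their calls was largely set by that choice and cannot decide between the labels. Which labels are right was not tested. Groups are called by their labels in the common set throughout, and an exchange of the labels would turn every sign round and alter no size. The libraries labelled shG8d held 8124488 and 8111839 reads in all regions, against 4457248 and 4344212 reads in those labelled shNC, so the shNC libraries count with less precision. Of 8 marker genes of mammary epithelium, 6 had a region annotated at their promoter and all 8 had a region somewhere, whereas 1 of 12 marker genes of blood, endothelial, neuronal and hepatic cells had a promoter region and 11 of them had a region somewhere.

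Intergenic accessible regions outside promoters are where many enhancers lie, short stretches of DNA bound by transcription factors that act on genes at a distance. Factors of the AP-1 family, p63 and the grainyhead-like proteins are known to occupy many such regions in epithelial cells. The nearest gene is a convention of annotation, and a region may act on another gene or on none. SNHG8d was studied by the submitters together with linker histone H1, the protein that binds DNA between nucleosomes and compacts chromatin.

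The promoters of 3 genes with many of these regions around them illustrate the sequence at the other end of that distance. They were chosen because the differences of the 8 regions around EMP1, the 10 around AREG and the 14 around ANXA1 mostly had 1 sign. Each is the 250 bases before the transcription start, taken from RefSeq on GRCh38.p14 and written 5′ to 3′ on the strand of the gene, and 5 of the 11 genes with the most members had such a sequence. Capitals mark matches to TGANTCA, in which N is any base, a looser pattern than the AP-1 consensus with C or G there. They also mark TGACGTCA, the cyclic AMP response element motif (CRE), and both were searched on both strands. The regions themselves lie on the authors' build, hg19, and their sequences were not used here.
EMP1 (chr12:13196476-13196725, plus strand): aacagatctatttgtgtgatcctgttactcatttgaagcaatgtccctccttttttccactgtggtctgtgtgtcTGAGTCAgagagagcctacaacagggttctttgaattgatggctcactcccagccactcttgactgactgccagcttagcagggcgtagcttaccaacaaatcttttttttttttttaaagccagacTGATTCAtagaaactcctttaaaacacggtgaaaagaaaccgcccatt
AREG (chr4:74444886-74445135, plus strand): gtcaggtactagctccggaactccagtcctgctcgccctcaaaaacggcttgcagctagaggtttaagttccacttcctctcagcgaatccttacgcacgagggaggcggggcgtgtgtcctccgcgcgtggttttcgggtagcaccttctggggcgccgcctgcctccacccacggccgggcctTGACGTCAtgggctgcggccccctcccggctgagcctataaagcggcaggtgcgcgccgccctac
ANXA1 (chr9:73151615-73151864, plus strand): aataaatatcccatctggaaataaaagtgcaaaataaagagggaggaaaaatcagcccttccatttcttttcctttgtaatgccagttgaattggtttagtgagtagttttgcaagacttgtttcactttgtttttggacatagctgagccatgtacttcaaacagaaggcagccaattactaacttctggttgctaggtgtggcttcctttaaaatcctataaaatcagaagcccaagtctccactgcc

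With these patterns, the EMP1 window held 2 matches to TGANTCA, of which TGAGTCA is also the stricter AP-1 consensus and TGATTCA is not. The AREG window held 1 CRE motif, while neither motif was in the ANXA1 window. The windows of PTPN1 and LINC02205, which are not printed, also held neither motif. Over 35116 RefSeq promoter windows of the same 250 bases, 6.57% held a match to TGANTCA and 1.65% a CRE motif. These matches describe the letters of the window and say nothing of binding.

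Values are given as normalized counts, which is 10 raised to the deposited log10 value. The width of a region was not used, so a level compared between regions also depends on width, whereas a difference between libraries at 1 region does not. The median member had 70.7 and 71.0 normalized counts in the libraries labelled shG8d, against 76.1 and 78.5 in those labelled shNC. The 2 groups did not overlap at this median, and the median of the log2 differences, shG8d minus shNC on log2(normalized count + 1), was -0.16. In a bulk assay, a region open in fewer cells and a region less open in each cell cannot be told apart.

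Most members showed modest differences. With limma's moderated test and Benjamini-Hochberg adjustment over all 58127 regions, at a threshold of 0.05, 783 members (8.73%) were called higher and 1347 (15.0%) were called lower in the libraries labelled shG8d. Over all regions of the table, 11.1% were called higher and 12.4% lower. Over all common regions 10.7% were called higher and 15.0% lower, so the members' share of lower calls is that of the common set and their share of higher calls lies below it. A change of at least 2-fold was estimated for 232 of the higher and 492 of the lower members, out of 8964. The same counts were 3029 and 3781 among all 58127 regions, and 1083 and 1894 among the 33913 common regions. The values of the groups did not overlap at 5952 members (66.4%), against 63.4% of all regions and 67.1% of common regions.

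These counts depend on the libraries used and on the scaling. Leaving out a library leaves 1 in its group, so the measured spread then comes from the other group alone. A call lost in such a fit, here and below, need not mean that the difference itself changed. Both counts fell without either shG8d library and rose without shNC A, while without shNC B higher calls rose and lower calls fell. The members' median difference was -0.15 without shG8d A, -0.16 without shG8d B, -0.19 without shNC A and -0.13 without shNC B. Without the library labelled shG8d A, 253 members (2.82%) were called higher and 419 (4.67%) lower, against 3.52% and 4.45% of all regions. Without shG8d B, 341 (3.804%) were called higher and 614 (6.85%) lower, against 4.26% and 6.42% of all regions. Scaling every library to the same total over all regions left 291 members (3.25%) called higher and 3383 (37.7%) called lower, against 4.44% and 28.1% of all regions, so that 7.92% of the calls were higher calls, against 36.8% with the authors' scaling. That scaling also moved the median difference of all regions to -0.36, against -0.02, and the median of the members to -0.51, against -0.16.

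The share of all reads in regions that fell in these members was 16.4% and 16.5% in the libraries labelled shG8d, against 17.5% and 18.4% in those labelled shNC. The shares did not overlap, and the group means, 16.4% ± 0.0786 and 17.9% ± 0.627 (SD, n = 2 each), differed by -1.505 percentage points. The two-sided exact permutation p was 0.333, the smallest that 2 libraries against 2 can give. With the reads in common regions as the denominator the shares were 24.2% and 24.01% in the libraries labelled shG8d and 23.9% and 24.5% in those labelled shNC, a difference of -0.147 points.

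Set beside the other common regions, the members were less accessible than promoters and more accessible than intergenic regions farther from genes. Common promoters had medians of 108 and 111 normalized counts in the libraries labelled shG8d, against 106 and 97.2 in those labelled shNC. The 3298 common intergenic regions at 100 kb or more had 61.9 and 59.7, against 66.4 and 70.3. The 12868 common introns had 69.8 and 70.2, against 77.3 and 78.5, close to the members in every library. On the log2 scale the members' median minus that of promoters was -0.51 ± 0.15 (SD over 4 libraries), and minus that of the farther intergenic regions 0.20 ± 0.04. Each gap had the same sign in all 4 libraries, and the two-sided exact sign-flip p was 0.125 for each, the smallest that 4 libraries allow. From introns the gap was 0.00 ± 0.02.

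The median difference between the groups was -0.16 in the members, -0.17 in common introns, -0.22 in intergenic regions at 100 kb or more and 0.06 in common promoters. Of the 6542 promoters, 1299 were called higher and 764 lower, and of the 3298 farther intergenic regions, 203 and 591. The gap between members and promoters averaged -0.63 in the libraries labelled shG8d, against -0.40 in those labelled shNC, and this difference had an exact permutation p of 0.333, again the smallest possible. The 3 members just inside 100 kb, nearest to KCNMA1, LINC01787 and EVX1-AS, had differences of 0.22, -0.10 and 0.44. The 3 common intergenic regions just outside it, nearest to MAGI2-AS3, NRIP1 and C12orf74, had -0.52, 0.13 and -0.78.

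The difference moved with the level of the region. The members were split by mean log10 value into 4 equal groups of 2241. In the lowest group, the medians were 35.3 and 35.5 normalized counts in the libraries labelled shG8d, against 43.5 and 46.9 in those labelled shNC. In the highest group they were 156 and 157, against 152 and 156. From the lowest to the highest group the median log2 difference was -0.37, -0.18, -0.10 and 0.02. Higher calls made up 1.07%, 4.11%, 10.4% and 19.4% of the members in them, whereas lower calls stayed between 14.6% and 15.8%. This gradient in the median had the same order without each single library and with equal library totals, where it ran between -0.72 and -0.33. The groups stayed as cut on all 4 libraries, whose values also form the difference, so these settings give no independent check. The part that sampling depth or membership of the common set plays in the gradient was not tested, and the shallower libraries are those labelled shNC.

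**Figure D1:**
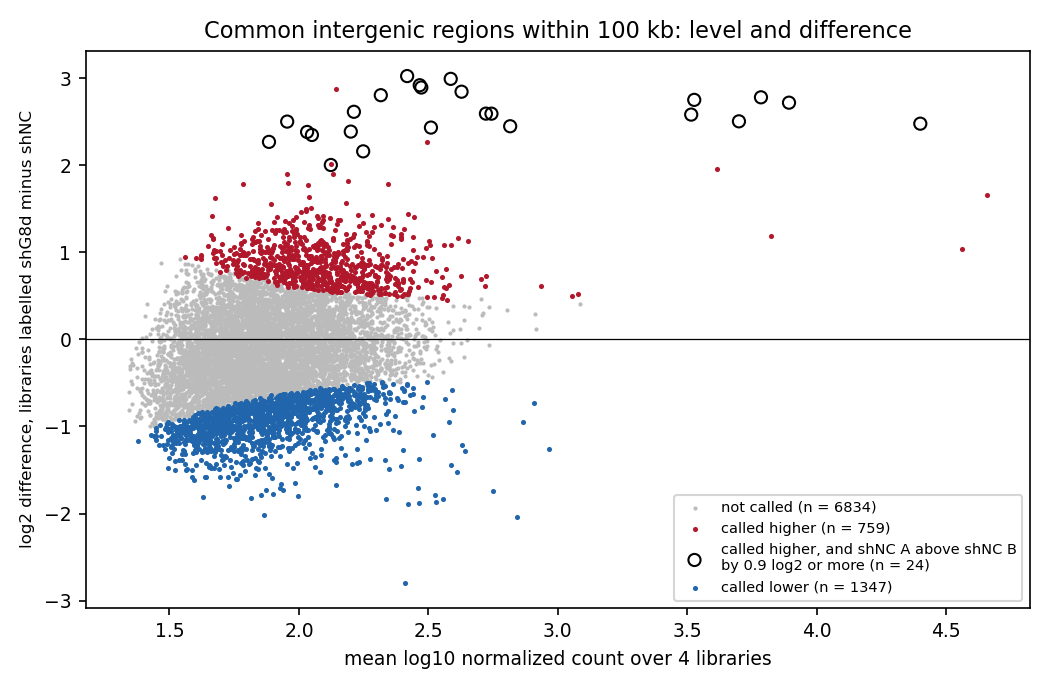
Each point is 1 of the 8964 members, with the mean log10 normalized count over the 4 libraries on the horizontal axis and the log2 difference, libraries labelled shG8d minus shNC, on the vertical axis. Red points were called higher and blue points lower, and the 24 black circles mark a subset of called regions that stands at the top, where the library labelled shNC A also exceeded shNC B by at least 0.9 on the log2 scale.

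Members lay a median of 26756 bases from the start of the nearest gene, and 6080 of them were upstream of it and 2884 downstream. None lay closer than 1007 bases, as common regions nearer to a start are annotated in other classes. The 259 members under 2 kb had medians of 82.5 and 84.7 normalized counts in the libraries labelled shG8d, against 95.4 and 97.2 in those labelled shNC. The 2309 members between 50 and 100 kb had 67.3 and 67.8, against 72.5 and 76.2. Accessibility was thus somewhat higher close to genes in each of the 4 libraries. The share of members upstream of their gene was 95.8% under 2 kb and 57.1% between 50 and 100 kb. This share follows in part from the annotation, since a region inside a gene is not intergenic.

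The contrast between the groups varied little with distance. The median log2 difference was -0.13 under 2 kb, -0.11 between 2 and 5 kb and between 5 and 10 kb, -0.16 between 10 and 25 kb, -0.17 between 25 and 50 kb and -0.19 beyond. The share called higher was 9.27% under 2 kb and 7.41% between 50 and 100 kb, and the share called lower 14.3% and 15.6%. Upstream members had 8.997% higher and 14.1% lower calls, and downstream members 8.18% and 17.0%.

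**Figure D2:**
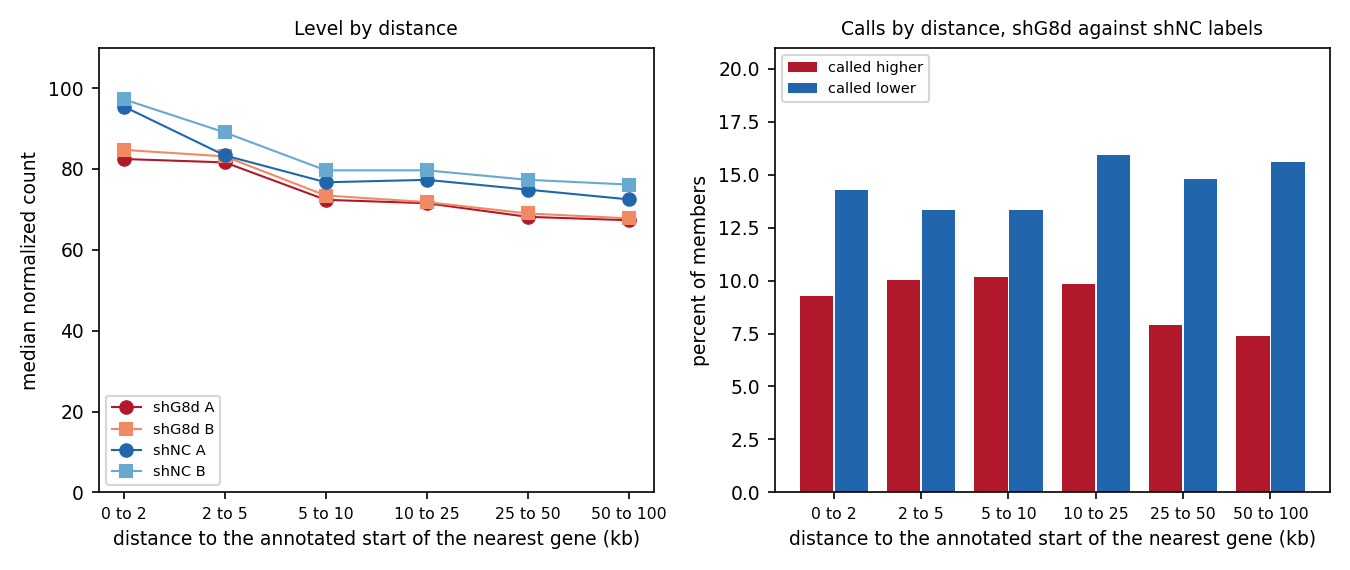
The left panel gives the median normalized count of members in 6 bins of distance to the annotated start of the nearest gene, with 1 line for each library. The right panel gives the percentage of members called higher and lower in each bin, and a reader should see levels that decline with distance in all 4 libraries and shares of calls that change little.

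The 10 highest members far exceeded the rest in level, and all 10 were called higher in the libraries labelled shG8d. They held 26.3% and 23.7% of the members' reads in the libraries labelled shG8d, against 10.2% and 6.96% in those labelled shNC. The highest lay 80084 bases from DCAF12L1 on chromosome X, with 87168 and 74390 normalized counts in the libraries labelled shG8d, against 32014 and 20454 in those labelled shNC. Its log2 difference was 1.65 ± 0.41 (SE), and it was not called without shG8d A or without shG8d B. Another 2 of the 10, on chromosome 17, were nearest to MTRNR2L1, a nuclear gene whose sequence resembles mitochondrial 16S ribosomal RNA. The stronger one had 54649 and 49351 normalized counts in the libraries labelled shG8d, against 26556 and 24239 in those labelled shNC, and the other had 12900 and 11027, against 2957 and 1493. The stronger one was not called without shG8d A, without shG8d B or with equal library totals, while the other was called in each of these settings.

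A region 23561 bases from LINC00399 on chromosome 13 had 63837 and 55036 normalized counts in the libraries labelled shG8d, against 14881 and 7612 in those labelled shNC. The groups did not overlap at any of the 10. Of the others, 5 lay near RAMP3, EMILIN2, MAP9, ZP4 and SRD5A3, with log2 differences between 1.95 and 2.78. Without these 10 regions the members' share of reads was 12.6% and 13.1% in the libraries labelled shG8d, against 16% and 17.3% in those labelled shNC. How the authors placed reads that match several places in the genome is not given in the sources used here, so levels at regions with near-identical copies are uncertain.

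Of these 10 regions 6 shared a further feature, a gap between the libraries of the control group. The region near EMILIN2, which encodes an extracellular matrix glycoprotein, had 17833 and 14287 normalized counts in shG8d A and B, against 3702 in shNC A and 1458 in shNC B. The region near ZP4, a zona pellucida glycoprotein gene, had 9108 and 8367, against 1999 and 840.1. In each, shNC A was far above shNC B, while both stayed below the shG8d libraries.

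Taking all members at least 4-fold higher in the shG8d libraries in which shNC A exceeded shNC B by at least 0.9 on the log2 scale, a rule chosen after these values were seen, gave 24 regions on 11 chromosomes. They are 24 of the 27 members that were at least 4-fold higher. Their log2 differences ran between 2.003 and 3.02, with a median of 2.59, and the gap between shNC A and shNC B between 0.92 and 1.90. They held 13.2% and 11.6% of the members' reads in the libraries labelled shG8d, against 3.51% and 1.68% in those labelled shNC. Outside the members 98 regions had the same profile, 54 of them common regions and 30 of those in introns. It occurred in 0.268% of members and 0.216% of the other common regions. The MTRNR2L1 member 9473 bases downstream is 1 of the 24. Regions nearest to MTRNR2L1, MTRNR2L3, MTRNR2L4 and MTRNR2L6, genes of the same family name, are among the 98. Most of the 98 lay nearest to genes of other names, and what regions with this profile share was not tested. In the libraries labelled shG8d, A also exceeded B at all 24, by 0.12 to 1.75 on the log2 scale, with a median of 0.41. The median of this gap in the other members was -0.008. Because libraries of the same group disagree here, the 24 regions rest on means of unlike values, and the cause was not tested.

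The largest positive differences were between 6.12-fold and 8.13-fold, on the log2(normalized count + 1) scale. The region 94463 bases upstream of LOC105369423 on chromosome 11 had 857 and 659 normalized counts in the libraries labelled shG8d, against 178 and 46.9 in those labelled shNC, a log2 difference of 3.02 ± 0.35. The region 75208 bases upstream of FSHR, the gene of the follicle-stimulating hormone receptor, had 1394 and 855 against 230 and 80.8. The region 22170 bases upstream of PIWIL1, which encodes a germline PIWI protein that binds small RNAs, had 395 and 367 against 58.0 and 44.5. PIWIL1 stands out among the 10 because its shNC libraries lay close together, and its log2 difference of 2.88 ± 0.20 was called without each single library. The others, near PRR32, GUSBP10, MIR5702 and NUBP1 and at the high regions of EMILIN2, ZP4 and RAMP3, had log2 differences between 2.61 and 2.92.

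The largest negative differences were smaller, and the libraries labelled shNC lay close together at most of these regions, though at LINC02057 they were 124 and 177 and at GXYLT1P3 132 and 168. The region 65212 bases downstream of OR4C46, an olfactory receptor gene on chromosome 11, had 82.5 and 115 normalized counts in the libraries labelled shG8d, against 687 and 671 in those labelled shNC, a log2 difference of -2.79 ± 0.18. The region 60263 bases upstream of FRG2B, a gene of a family at the ends of chromosomes, had 360.2 and 328 against 1415 and 1411, a difference of -2.04 ± 0.15. The region 3421 bases upstream of ANKRD30BL on chromosome 2 had 188 and 168 against 651 and 646. The other 7 lay near GXYLT1P3, LOC101927237, NDUFV2, NPR3, C5orf46, LOC102723769 and LINC02057, with differences between -2.02 and -1.77. All 10 were called without each single library and with equal library totals.

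**Figure D3:**
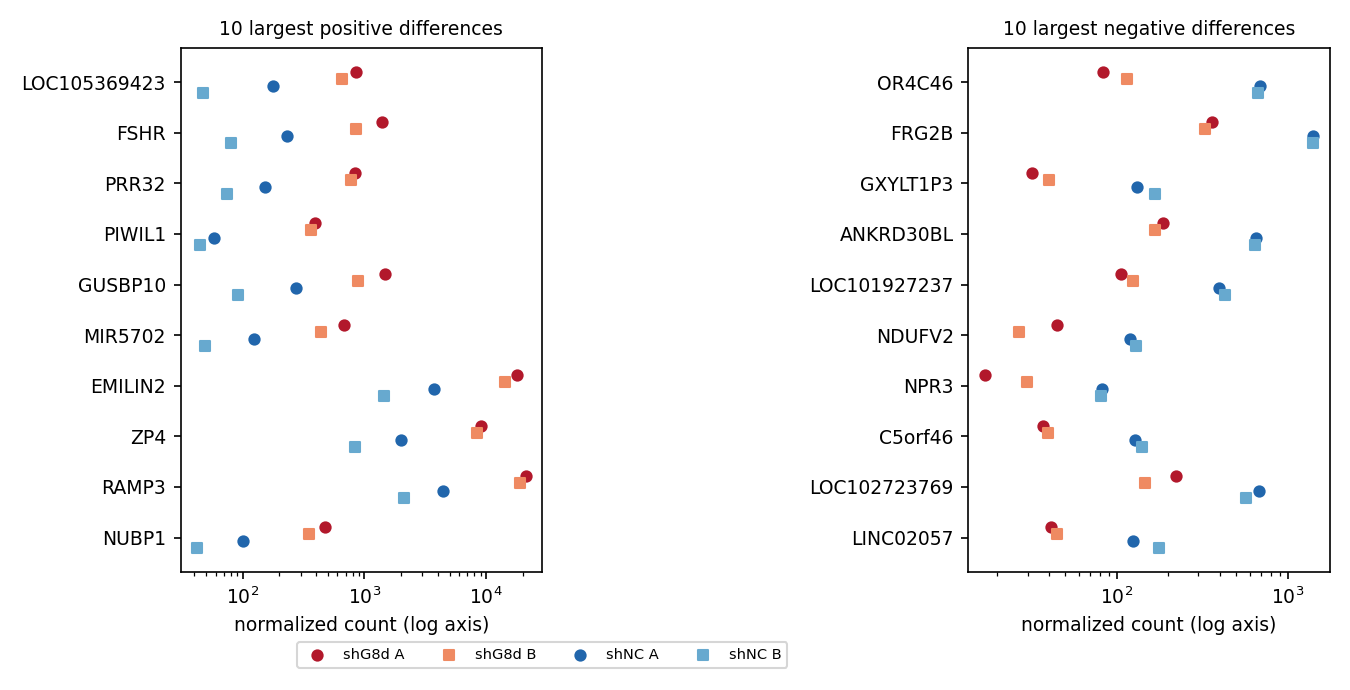
Normalized counts, on a log axis, of the 4 libraries at the 10 members with the largest positive log2 differences (left) and the 10 with the largest negative differences (right), each named by its nearest gene. On the left, shNC B lies well below shNC A at every region but PIWIL1, and on the right the libraries labelled shNC lie close together at most regions.

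Lower calls gathered around 2 of these genes. Among the 144 nearest genes with 5 or more members, OR4C46 and ANKRD30BL are the only ones with every member called in 1 direction. All 7 members between 54784 and 75536 bases downstream of OR4C46 were called lower, with log2 differences between -2.79 and -1.01. Their summed normalized counts were 1011 and 1157 in the libraries labelled shG8d, against 4023 and 3921 in those labelled shNC, and 1 of the 7 shows the size at a strong region, with 280.2 and 336 against 1040.2 and 1022. All 6 members within 23360 bases upstream of ANKRD30BL were called lower, with sums of 1681 and 1776 against 3909 and 3476 and differences between -1.86 and -0.73. The promoter region of ANKRD30BL, from the shNC-specific set, was called higher, with 414 and 387 against 338 and 202, a difference of 0.61. Without shG8d A, 6 of the 7 and 4 of the 6 were called lower. Regions around 1 gene share a locus, so these do not count as 7 and 6 separate observations.

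Nearest genes with many members seldom moved as a block. The 8947 members with a gene symbol fell to 5493 nearest genes, of which 3477 had 1 member, 1178 had 2, 694 had 3 or 4 and 144 had 5 or more. Of those 144 genes, 128 had members with differences of both signs, 14 had only negative and 2 only positive ones. Calls in both directions occurred at 33 of them and no call at 32.

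ANXA1, which encodes annexin A1, a membrane-binding protein known for its anti-inflammatory action and abundant in epithelium, had the most members, 14 on chromosome 9. Their summed normalized counts were 1947 and 2006 in the libraries labelled shG8d, against 2490 and 2708 in those labelled shNC, with no overlap. Of the 14, 6 were called lower and 0 higher, and 12 had a negative difference. The strongest difference was 7777 bases upstream, where the values were 37.0 and 44.4 against 116 and 114, a log2 difference of -1.48 ± 0.24. A region 17568 bases upstream went the other way without being called, with 365 and 345 against 249 and 299.9. Without shG8d A 2 of the 14 were called lower, and without shG8d B 4.

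LOC101928381 on chromosome 9 had 9 members, of which 5 were called lower and 1 higher, and its region 17615 bases upstream had 214 and 272 normalized counts in the libraries labelled shG8d, against 719 and 674 in those labelled shNC, a log2 difference of -1.53 ± 0.17. Regions 17563 and 17513 bases upstream of the same gene had differences of -0.31 and -0.60. Regions at nearly the same annotated distance thus did not show the same size of difference. Start and end positions were not used here, so these regions may not lie side by side. Without shG8d A 2 of the 9 were called lower.

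PTPN1, which encodes the tyrosine phosphatase PTP1B, a regulator of insulin and growth factor receptors, had 11 members, all upstream. Their sums were 2064 and 2044 normalized counts in the libraries labelled shG8d, against 1802 and 1641 in those labelled shNC. Of these, 3 were called higher and 1 lower, and none of the 11 was called without shG8d A or without shG8d B. The region 69547 bases upstream, one of the strongest, had 433 and 444 against 326 and 313. Its common promoter region had 308 and 332 against 161 and 108 and was called higher, with a log2 difference of 1.27. The median difference of the 11 members was 0.33, and -0.02 with equal library totals.

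EMP1, which encodes a small membrane protein of the epithelium, is 1 of the 2 genes with 5 or more members whose differences were all positive. Its 8 members summed to 810 and 817 normalized counts in the libraries labelled shG8d, against 669 and 662 in those labelled shNC, but none was called and the median difference was 0.31. With equal library totals, which moved the median of all regions by -0.35, that median was -0.04. Its promoter had 208 and 232 against 174 and 219, which overlap. AREG, the gene of the growth factor amphiregulin, had 10 members, with 9 negative differences and 1 called lower, which was not called without shG8d A. Their sums were 652 and 667 normalized counts in the libraries labelled shG8d, against 846 and 829.5 in those labelled shNC. The AREG promoter region, from the shNC-specific set, went the other way without being called, with 41.2 and 42.0 against 32.6 and 25.8.

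Other genes with 8 or more members showed mixed differences. GASAL1, a long non-coding RNA gene, had 3 of 8 called higher, NDRG1, a gene induced by stress and low oxygen, 2 higher and 2 lower of 8, FLJ42969 1 higher and 1 lower of 9, and LINC02205 2 lower of 10. GASAL1 had 1 higher call without shG8d A and 1 without shG8d B. FLJ42969 and LINC02205 had no call in either setting, and NDRG1 had 2 lower calls without shG8d A and 1 higher call without shG8d B.

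**Figure D4:**
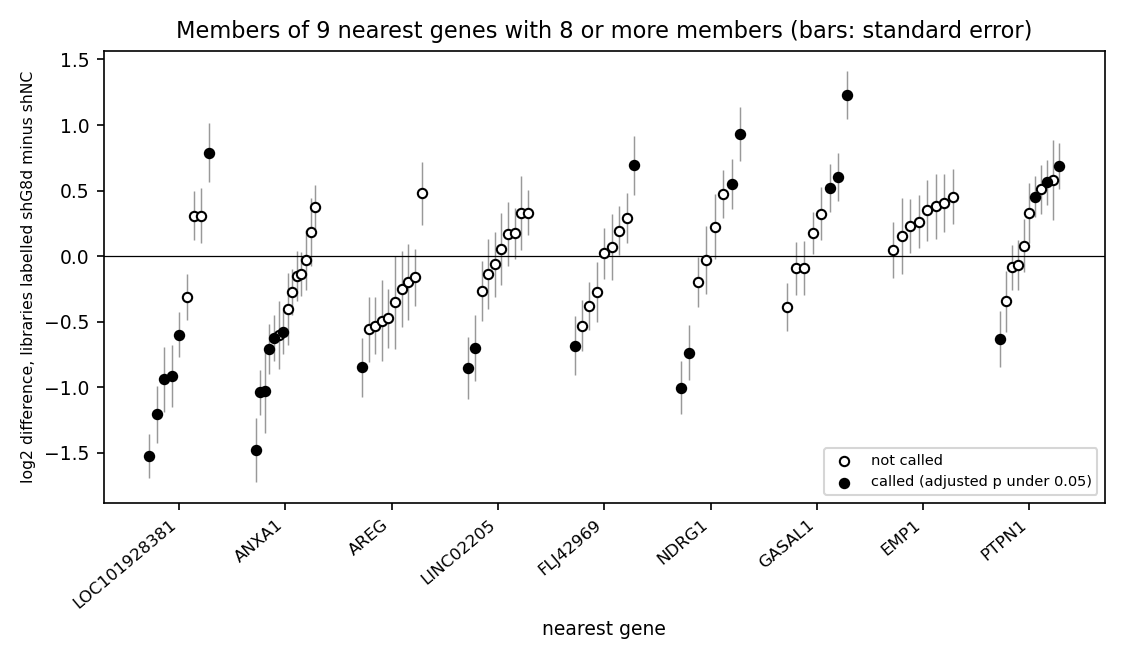
Each point is 1 member, grouped by nearest gene for 9 of the 11 genes with 8 or more members, with its log2 difference, libraries labelled shG8d minus shNC, and its standard error as a bar. Filled points were called, and most genes show points on both sides of 0, while the points of ANXA1 and AREG lie mostly below it and those of EMP1 all above it.

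In all, 14 lists of 217 genes were set beside the members, chosen for an epithelial line with a linker histone in the study's question. Of the listed genes 93 were the nearest gene of 210 members, of which 25 (11.9%) were called higher and 24 (11.4%) lower, with a median difference of -0.14. Over all members these shares were 8.73% and 15.0% and the median -0.16. Without shG8d A, 10 of the 210 were called higher and 3 lower, and without shG8d B 11 and 10. With equal library totals 9 were called higher and 73 lower. Of the 49 calls, 10 held when each library was left out and with equal library totals. These were 8 higher calls, among them those at ELF3, JUN, PKP1, CLDN4, CTNNB1, KRT80 and CYR61, and 2 lower calls, at TP63 and TWIST1, and the other 39 were lost in at least 1 of these settings.

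Transcription factors of the epithelium, which set and keep the identity of these cells, had 40 members, 3 called higher and 4 lower, with a median of -0.26. TP63, the gene of the basal cell factor p63, had 5 members. The one 8097 bases upstream had 38.7 and 34.7 normalized counts in the libraries labelled shG8d, against 97.9 and 74.98 in those labelled shNC, a log2 difference of -1.20 ± 0.27 that was called without each single library. ELF3, an ETS family factor of epithelium, had 6 members, the most of the list, and 2 were called higher. The one 24317 bases downstream had 165 and 152 against 55.6 and 91.4, a difference of 1.14 ± 0.23. A RUNX1 region 14451 bases upstream had 26.9 and 29.1 against 55.6 and 56.2, and a TFAP2C region 22614 bases upstream 118 and 123 against 186 and 211. Both were called lower, but not without shG8d A or without shG8d B. All 4 regions of GRHL2, the grainyhead-like factor of the epithelial barrier, had negative differences between -0.61 and -0.44 and none was called.

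The AP-1 and ATF family, immediate-early factors that bind open enhancers, had 12 members, 4 called higher and 2 lower, with a median of -0.06. JUN had 1 region, 28509 bases downstream, with 153 and 136 normalized counts in the libraries labelled shG8d, against 100.3 and 39.8 in those labelled shNC. Its difference was 1.18 ± 0.30, and the shNC libraries were far apart. JUNB had 228 and 228 against 147 and 108 at a region 1351 bases upstream, which was called higher with a difference of 0.85. That call was lost without shG8d A, where the difference was still 0.85, and with equal library totals, where it was 0.50. FOS had 5 members with calls in both directions. The region 4996 bases downstream had 97.6 and 136 against 210.2 and 200.35, a difference of -0.83 ± 0.20, while that 19679 bases upstream had 256 and 261 against 164 and 149.97, a difference of 0.72 ± 0.17. Both of these calls were lost without shG8d A. The FOSB call, a difference of 0.54, was lost without shG8d A, without shG8d B and with equal library totals, where the difference was 0.19.

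Genes by which epithelial cells attach to the basement membrane and to each other showed calls both ways. Of 20 members at hemidesmosome, laminin and integrin genes, 3 were called higher and 3 lower, with a median of 0.00. ITGB1, the gene of the integrin beta-1 chain, had 6 members. The strongest, 22293 bases upstream, had 437 and 330.1 normalized counts in the libraries labelled shG8d, against 198 and 214 in those labelled shNC, and was not called without shG8d A. Another, 3659 bases upstream, had 74.9 and 64.6 against 116 and 124 and was called lower, but not without shG8d A or without shG8d B. COL17A1, the hemidesmosomal collagen XVII gene, had 25.3 and 40.3 against 62.8 and 65.6, a lower call lost without shG8d A. The ITGB6 and ITGAV calls, 0.80 and -0.77, were lost without shG8d A and without shG8d B. The ITGB6 difference was 0.83 and 0.77 in these settings, and its call was also lost with equal library totals, at 0.45.

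Cadherin, desmosome and tight junction genes had 26 members, 4 called higher and 2 lower, with a median of -0.06. Of the higher calls 3 held without each single library. The CLDN4 region 8160 bases upstream, at the gene of the tight junction protein claudin-4, had 282 and 259.9 normalized counts in the libraries labelled shG8d, against 127 and 129 in those labelled shNC, a difference of 1.08 ± 0.18. The PKP1 region 8004 bases upstream, at the gene of the desmosomal protein plakophilin 1, had 270.1 and 263 against 167 and 93.7. The CTNNB1 region 67964 bases upstream, at the gene of beta-catenin, had 128 and 137 against 74.9 and 53.9. CDH1, the E-cadherin gene, had 1 region called higher and 1 called lower, with differences of 0.61 and -0.73, both lost without shG8d A, shG8d B or shNC B. CLDN1 had a lower call, -0.79, that was lost without shG8d A, shG8d B or shNC B.

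Keratin genes, which encode the intermediate filaments of epithelium, had 8 members, 1 called higher and 1 lower, with a median of -0.15. The higher call was at KRT80, 44494 bases downstream, with 325 and 289 normalized counts in the libraries labelled shG8d, against 128 and 121 in those labelled shNC, a difference of 1.29 ± 0.18 that was called without each single library. The lower call, at KRT8 with -0.63, was lost without shG8d A, shG8d B or shNC A. Of the 6 members at genes of epidermal differentiation 1 was called higher, at PPL, the periplakin gene. It had 188 and 153 against 115 and 65.6. Its call was lost without shG8d A and with equal library totals, where the difference was 0.60.

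The EGF receptor, its ligands and its feedback inhibitor ERRFI1 are the growth signal that MCF10A cells depend on in culture. They had 31 members, of which 2 were called higher and 6 lower, with a median of -0.26. AREG had the most, 10, and the called one lay 69458 bases downstream, with 59.7 and 67.8 normalized counts in the libraries labelled shG8d, against 106 and 125 in those labelled shNC. At TGFA, the gene of the ligand transforming growth factor alpha, 2 regions were called lower and 1 higher. The region 53329 bases upstream had 41.2 and 50.8 against 80.9 and 109, and the region 62350 bases upstream had 130.4 and 113 against 72.5 and 85.5. ERRFI1 likewise had 2 regions called lower and 1 called higher among 7. Without shG8d A 1 of the 31 was called lower and 0 higher, and without shG8d B 3 and 0. The EGFR call, -0.70 at 72223 bases upstream, was also lost without shNC B.

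TGF-beta and SMAD genes, a pathway that restrains epithelial growth, had 14 members, 1 called higher and 3 lower, with a median of -0.25. SMAD6 and SMAD7, the inhibitory SMADs, and SMAD2, a receptor-activated SMAD, each had 1 region called lower, with differences of -0.82, -0.68 and -0.72. All 3 of these calls were lost without shG8d A, those of SMAD2 and SMAD7 also without shG8d B, and that of SMAD2 without shNC B.

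The YAP and Hippo list, targets and regulators of a pathway that senses cell density and tension, had 7 members with 4 called higher, 0 called lower and a median of 0.68. CYR61, a matricellular target gene of YAP, had 2 regions. The one 31334 bases downstream had 154 and 144 normalized counts in the libraries labelled shG8d, against 67.7 and 52.7 in those labelled shNC, a difference of 1.31 ± 0.22. The one 26558 bases downstream had 166 and 201 against 109.9 and 105, a difference of 0.76 ± 0.19. AMOTL2 had 139.7 and 114 against 94.2 and 58.6, and WWC1 115 and 126 against 68.9 and 80.8. Both of these calls were lost without shG8d A and without shG8d B, and that of AMOTL2 also without shNC B. They were lost with equal library totals as well, where the differences were 0.40 and 0.33. The CTGF, LATS2 and TEAD1 regions had differences of -0.31, -0.66 and -0.29 and were not called. Without shG8d A 2 of the 7 were called higher, without shG8d B 1, and with equal library totals 1 was called higher and 1 lower, so the list stands on a few regions.

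Inflammatory genes had 27 members, 2 called higher and 1 lower, with a median of -0.07. CXCL2, a neutrophil chemokine gene, had the lower call, with 213 and 246 normalized counts in the libraries labelled shG8d, against 401 and 384 in those labelled shNC. It was lost without shG8d A. The higher calls were at BIRC3, an NF-kB target that inhibits cell death, 61017 bases upstream with 179 and 207 against 111 and 105, and at CCL20. The first was lost without shG8d B and the second without shG8d A, shG8d B or shNC B. Both were lost with equal library totals, where the differences were 0.47 and 0.38. Of 3 members at genes of epithelial-mesenchymal transition 1 was called lower, 96821 bases downstream of TWIST1, with 30.3 and 29.9 against 79.7 and 58.6. The 8 members at histone genes, 5 of them at HIST1H4H, held 1 lower call, of -0.78, that was lost without shG8d A, shG8d B or shNC B. The linker histone genes H1F0 and HIST1H1A had 2 and 1 members, with differences between -0.25 and 0.08 and no call. None of 5 members at Notch genes and none of 3 at marker genes of other cell types, CDH5, TEK and NEUROD1, was called, and the 5 Notch differences were all positive, between 0.16 and 0.43.

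**Figure D5:**
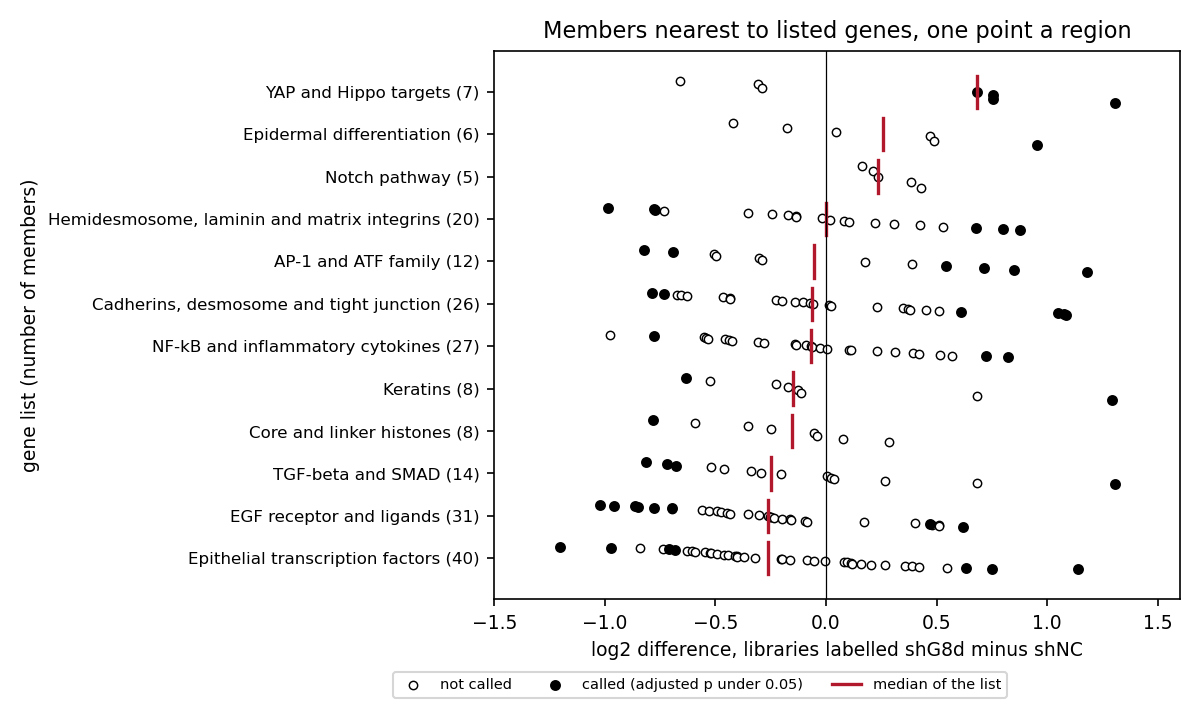
Each point is 1 member nearest to a gene of the 12 lists with 5 or more members, placed by its log2 difference, libraries labelled shG8d minus shNC. Filled points were called and the red line is the median of the list, which lies at 0.68 for the YAP and Hippo list and between -0.26 and 0.26 for the others.

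Differences of neighbouring members were weakly related, and those of a gene's members and its promoter hardly at all. Neighbours are 3446 pairs of members next to each other in annotated distance at the same nearest gene, which may not adjoin on the chromosome. Pearson's r of their log2 differences was 0.13, and 55.5% of pairs had the same sign. The same pairs gave r of -0.004 for the difference of shG8d A minus B and 0.056 for that of shNC A minus B, and all pairs share the 4 libraries and their scaling. For 1287 genes with a common promoter region, the median difference of the members and the difference at the promoter had r of 0.013. Among genes with a member called higher, 27.1% of 170 such promoters were called higher and 13.5% lower. Among genes with a member called lower, 23.1% of 307 were called higher and 11.4% lower, and over all 1287 genes 21.6% and 10.7%. Promoters near lower regions were thus called higher more often than lower, as promoters were in general.

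Chromosomes and gene types added modest contrasts. Chromosome 9, with 600 members, had the highest share called lower of any chromosome, 23.3%, against 10.3% higher, and a median difference of -0.28, while its other common regions had 20.1% lower calls and a median of -0.14. Chromosome 16 had 7.35% lower and 13.9% higher calls among 245 members, against 11.5% and 14% among its other common regions. The 6189 members nearest to protein-coding genes, the 2408 nearest to non-coding RNA genes and the 299 nearest to pseudogenes had median differences of -0.16, -0.17 and -0.18.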

How the data were processed

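The submitters' processing notes name CASAVA 1.4 and build hg19. No aligner, peak caller, rule for multiple matches or differential test is named, and these steps were not given in the sources used here. Per the file headers, the deposited table holds for each region 4 log10 normalized values, a log2 fold change and a p-value. The deposited log2 fold changes of members equal the log2 ratios of group means to 0.00384, and 2207 members had a deposited p-value under 0.05, unadjusted.

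Here, 10 was raised to each log10 value, which gave whole multiples of 1 step per library for 100% of values within 0.05 reads, and reads were recovered from it. The unit is log10, not counts, so limma 3.58.1, run in R 4.3.3 and with its trend option, was fitted to log2(normalized count + 1) of all 58127 regions, libraries followed across sets by their step. The pseudocount understates changes of low regions. The filter, 10 normalized counts in at least 2 libraries, removed 0 regions. The limit set by 0 reads, taken as 3 reads, equals 2.42 to 3.62 normalized counts and covers counting error only. The lowest member held 14 reads. The test was also run on simulated reads with the same spread set for every region. Libraries of a group differ strongly at some regions here, so that run does not vouch for these calls. Named regions are the 10 highest, the 10 largest differences in each direction, the 10 genes with the most members (11 with ties), up to 4 genes per list and the regions next to 100 kb. OR4C46 and ANKRD30BL clusters and the 24 regions with unlike control libraries were singled out after their values were seen. The members and lists were chosen with earlier results of these data known. Date-like symbols at 5 members were restored from RefSeq. Results at some genes are not reported here.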

Additional observations from a re-analysis of the deposited data

How the results depend on the processing

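Scaling to equal library totals gave 291 members called higher and 3383 called lower, with a median difference of -0.51. Leaving out 1 library gave 253 to 1069 higher calls, 419 to 1842 lower calls and a median between -0.19 and -0.13. The median was -0.11 with at least 50 normalized counts in 2 libraries and -0.13 with median-ratio scaling. The difference in the share of reads was -0.147 points with common regions as the denominator and -2.87 points without the 24 regions of unlike control libraries, an alternative chosen after seeing the data. Of the regions not called, LINC01787 ran between -0.24 and 0.046 with 1 library left out, positive without shNC B, and KCNMA1 was at -0.13 with equal totals. Both counts stayed within 1.5 times of the reported ones under both other pseudocounts, no filter, either distance limit, common regions alone, no sex chromosomes and equal totals over regions under 1000 normalized counts, the last also chosen after seeing the data. Of the 62 called regions named, 26 were not called without shG8d A, 18 without shG8d B, 1 without shNC A, 6 without shNC B and 9 with equal totals. With the letter A or B as a replicate block, 866 members were called higher and 1521 lower. The letters were not taken as pairs, since the deviations of same-lettered libraries had an r of 0.0327 over the members. Leaving out a library leaves an arm with 1 sample, which is then assumed to vary like the other group. With 2 libraries a group no permutation test can pass the threshold, and the causes of these changes were not tested.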
